A study of Homo sapiens with 5 samples.

Results

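The genes described here encode mTOR, the proteins that assemble with it into its complexes, and the main switches directly above them. There were 10 of them, out of 19775 genes with a probe set of their own on the array: AKT1S1, MTOR, RPTOR, RICTOR, MLST8, DEPTOR, RHEB, TSC1, TSC2 and DDIT4. All 25 probe sets that the platform annotation lists for these genes were taken. AKT1S1 was treated as chosen by its measured values, since it had passed the 0.05 threshold between miR-483-5p and the control in 3 alternative settings of an earlier pass over the same arrays; the basis of the choice was not stated. Its own differences are therefore given as a description, with no test. The other 9 genes were treated as chosen from their known place in the pathway.

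Affymetrix arrays that read the 3' end of transcripts were used on RNA of MHH-ES-1 cells, a human Ewing sarcoma cell line kept in medium with serum. Every group received, by lipid transfection, a synthetic microRNA mimic, a short RNA duplex, at 50 nM, and was harvested after 48 h. The mimic was miR-483-5p on 2 arrays, miR-483-3p on 1 array and a scrambled sequence, the control, on 2 arrays. The labels call the later array of each pair a repeat without saying whether it came from its own culture. A p-value here reflects how far such paired arrays lay apart, and that distance could be technical alone.

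mTOR is a protein kinase that sets protein synthesis, growth and autophagy by nutrient and growth factor supply. It works in a complex with RPTOR, mTORC1, which phosphorylates regulators of translation, and in another with RICTOR, mTORC2, which phosphorylates AKT. MLST8 sits in both, and DEPTOR restrains both. AKT1S1, also called PRAS40, is a subunit and inhibitor of mTORC1 that lets go of it once AKT has phosphorylated it. RHEB, a small GTPase, switches mTORC1 on, the TSC1 and TSC2 complex switches RHEB off, and DDIT4, also called REDD1, acts through TSC2 under stress. The arrays measured RNA, and neither protein nor kinase activity was recorded.

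The arrays had been scaled to a common trimmed mean before deposit, and their median signals lay between 39.2 and 44.9. The 8 Ewing sarcoma markers looked up each had a signal of at least 629 on every array, CD99 from 4380 to 5090 and NKX2-2 from 2440 to 2920. Among markers of other cells, PTPRC (leukocytes) reached 19.7, MYOD1 (muscle) 9.7, CDH1 and EPCAM (epithelium) 25.5 and 35.4, and DES (muscle) 46.9, while PECAM1 (endothelium) lay between 133 and 170. The ratio of the 3' to the 5' control probe set of GAPDH, a sign of RNA integrity, stood at 1.02 and 0.996 on the control arrays, at 1.09 and 1.10 on the miR-483-5p arrays and at 1.06 on the other. It separated the miR-483-5p arrays from the controls. The same ratio of ACTB did not, at 1.18 and 1.07 with miR-483-5p against 1.07 and 1.04, and was 1.09 on the remaining array. The part of either in the differences below was not tested.

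AKT1S1 was far below its control signal in the miR-483-5p arrays, in the brighter of its 2 probe sets. Probe set 224982_at had a signal of 480.5 and 547.4 with miR-483-5p, 1048.2 and 960.9 on the control arrays and 945.6 with miR-483-3p. Both miR-483-5p arrays lay far below the other 3, and the miR-483-3p array lay just under the lower control. The means were 514 ± 47.3 and 1005 ± 61.7 (SD, n = 2 each), a ratio of 0.512. On the log2(signal + 32) scale used throughout, where 32 is a constant that damps noise in dim probe sets and so understates their changes, the difference was -0.93 (SE 0.13). In a bulk RNA sample, a lower level in every cell and a loss in some of the cells cannot be told apart.

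The dimmer AKT1S1 probe set, 1555821_a_at, gave a like difference for miR-483-5p, with much more spread. It read 112.5 and 207.8 on the miR-483-5p arrays, 280 and 292.5 on the control arrays and 214.7 with miR-483-3p. The miR-483-5p arrays again lay below both controls, but here the repeat miR-483-5p array was nearly level with the miR-483-3p array. The log2 difference was -0.77 (SE 0.27) for miR-483-5p and -0.37 (SE 0.33) for miR-483-3p, where 224982_at gave -0.08 (SE 0.16). The probe sets thus differed on miR-483-3p, which was close to the control in one and about midway between the groups in the other. Between the arms, miR-483-5p was lower than miR-483-3p by 0.84 on the log2 scale (SE 0.16) in 224982_at and by 0.41 (SE 0.33) in 1555821_a_at. These comparisons share arrays with the one that chose the gene.

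**Figure D1:**
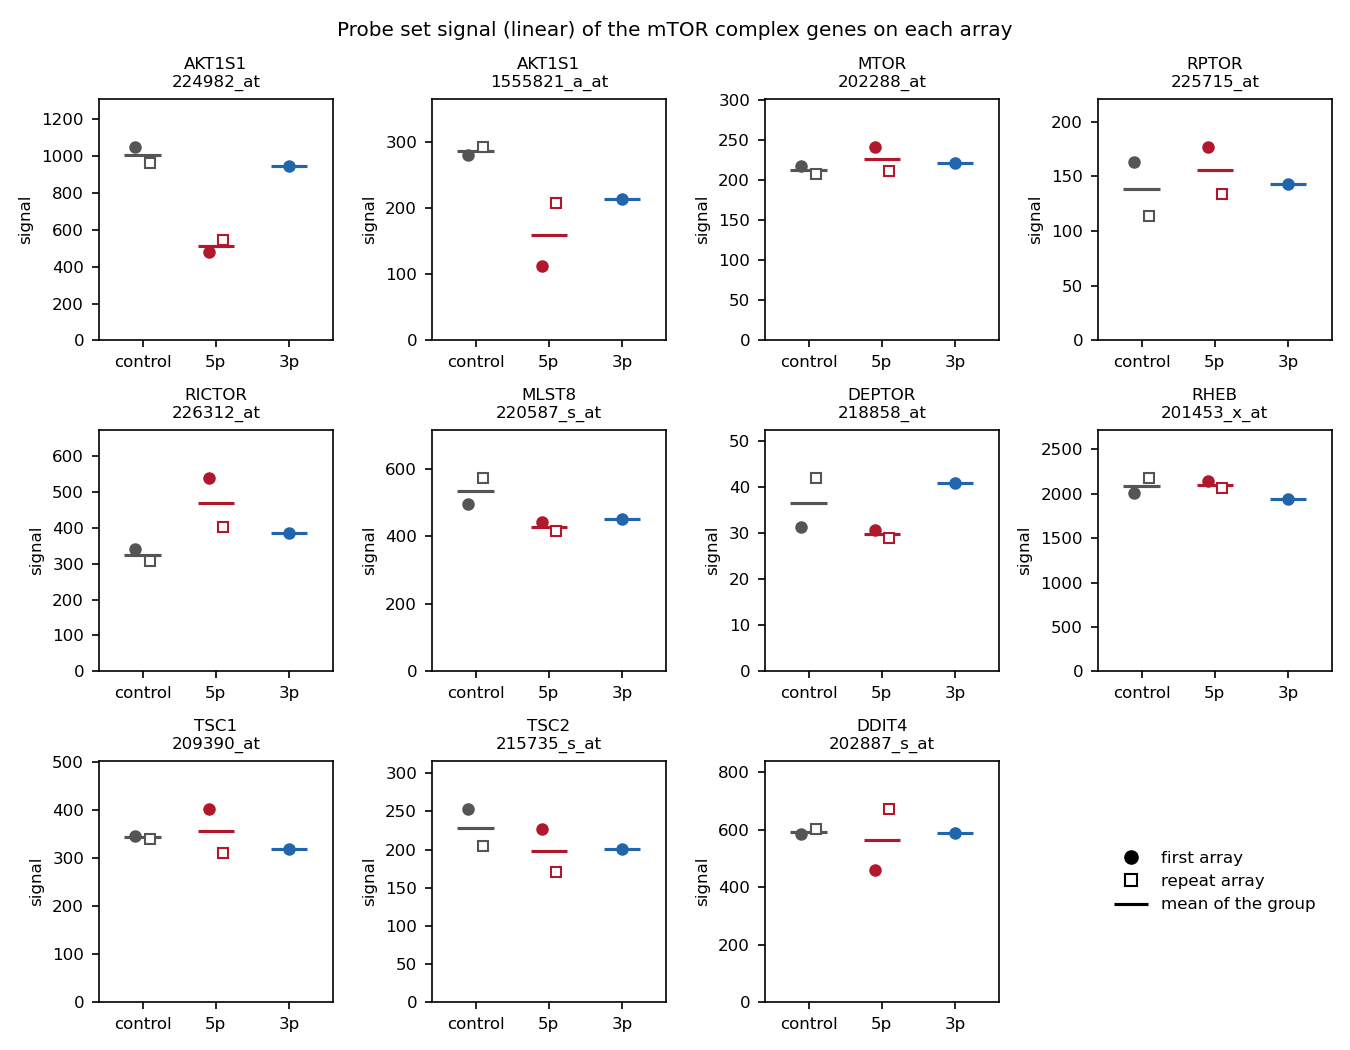
Linear signal of both AKT1S1 probe sets and of the brightest probe set of each other gene, by mimic, with 1 point per array and a line at the group mean. In AKT1S1 224982_at the miR-483-5p arrays sit at 480.5 and 547.4, under 960.9 and 1048.2 in the controls. The miR-483-5p arrays also lie under both controls in MLST8 and DEPTOR and above both in RICTOR. In MTOR, RPTOR, RHEB, TSC1, TSC2 and DDIT4 the same groups overlap.

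For the tests, each gene was represented by its brightest probe set, 14591 genes passed a filter on dim signals, and all 10 members were among them. No gene reached a limma adjusted p under 0.05 in any of the 3 comparisons (0% each). At an unadjusted p under 0.05, 5.3% of genes lay above the control with miR-483-5p and 5.41% below it. Of the 9 members other than AKT1S1, 1 was higher at that level, RICTOR, and 0 were lower. The 2 miR-483-5p arrays lay above both controls in 20.3% of genes and below both in 22.2%. Among the same 9 members this held for 1 (RICTOR) and 2 (MLST8 and DEPTOR), which is near the background. The median log2 difference of the 9 was 0.009, against -0.008 over all genes.

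The signal of the catalytic subunit overlapped between the groups. MTOR, probe set 202288_at, had a signal of 241.3 and 211.4 with miR-483-5p, 217.4 and 207.3 on the control arrays and 221.5 with miR-483-3p. The miR-483-5p and control arrays overlapped, with a log2 difference of 0.08 (95% interval -0.26 to 0.42, limma adjusted p = 0.882). The other MTOR probe set, 215381_at, was at 14.1 or less on every array, under the filter's 27.2.

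MLST8, the subunit shared by both complexes, was dimmer with either arm than in both controls. Its one probe set, 220587_s_at, had 441.1 and 414.5 with miR-483-5p, 494.3 and 571.8 on the control arrays and 451.2 with miR-483-3p. The groups did not overlap, but the control arrays were further apart than the gap between the groups. The log2 difference came to -0.29 for miR-483-5p (95% interval -0.64 to 0.06, limma adjusted p = 0.535) and -0.22 for miR-483-3p (-0.65 to 0.21, adjusted p = 0.905). Both rest on the same control arrays. Without the repeat control array they were -0.19 and -0.12.

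DEPTOR, the inhibitor of both complexes, was barely above the filter. Probe set 218858_at had a signal of 30.7 and 29 with miR-483-5p, 31.3 and 42 on the control arrays and 40.9 with miR-483-3p. The miR-483-5p arrays lay under both controls; the nearest pair was almost level. As a log2 difference this was -0.15 (95% interval -0.50 to 0.21, limma adjusted p = 0.762). Its other probe set, 234071_at, was at 16.7 or less on every array.

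RPTOR, the scaffold subunit of mTORC1 that recruits its substrates, had 176.8 and 134.2 with miR-483-5p, 163.3 and 114.3 on the control arrays and 142.8 with miR-483-3p in its single probe set, 225715_at. In both pairs the repeat array was the dimmer, and the groups overlapped. As a log2 difference this was 0.14 (95% interval -0.33 to 0.61, limma adjusted p = 0.844).

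RICTOR, the scaffold of mTORC2, was brighter with miR-483-5p in its brightest probe set and less so, or not, in the others. Probe set 226312_at had 537.8 and 400.6 with miR-483-5p, 341.5 and 308.1 on the control arrays and 384.7 with miR-483-3p. Neither miR-483-5p array reached down to the controls, the first being far above, and the miR-483-3p array lay between the groups. The log2 difference was 0.48 (95% interval 0.06 to 0.90, unadjusted p = 0.0304, limma adjusted p = 0.417). Without the first miR-483-5p array it came to 0.28, and to 0.19 over the mean of the RICTOR probe sets.

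The other RICTOR probe sets did not separate the groups. Probe set 228248_at had 351.8 and 292.8 with miR-483-5p against 297.9 and 248.9 in the control, a log2 difference of 0.21 (SE 0.16), and 248.9 with miR-483-3p. Probe set 226310_at had 183.9 and 154.1 against 180.9 and 139.3, a difference of 0.07 (SE 0.17), and 202.4 with miR-483-3p. In each of these 3 probe sets the first array was brighter than its repeat in both pairs. The last, 1552734_at, lay between 18.1 and 25.8, under the filter.

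RHEB, the GTPase that activates mTORC1, had 9 probe sets, and the 3 brightest gave little difference. Probe set 201453_x_at had 2139.2 and 2059.5 with miR-483-5p, 2001.3 and 2173 on the control arrays and 1935.4 with miR-483-3p. The miR-483-5p and control arrays overlapped, and the miR-483-3p array was the lowest of the 5. The log2 difference came to 0.01 for miR-483-5p (95% interval -0.32 to 0.34, limma adjusted p = 0.990) and -0.11 for miR-483-3p (-0.51 to 0.30, adjusted p = 0.973). The suffix _x_at marks probes that can also bind other transcripts. Probe sets 213404_s_at and 1555780_a_at gave 0.15 (SE 0.14) and -0.07 (SE 0.11) for miR-483-5p.

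The dimmer RHEB probe sets disagreed with each other. Probe set 213409_s_at had 78.2 and 69.1 with miR-483-5p, 55.4 and 54.2 on the control arrays and 71.5 with miR-483-3p, so that each mimic array lay above both controls. Probe set 227633_at had 113.2 and 54.1 with miR-483-5p, 75.2 and 120.7 on the control arrays and 23.5 with miR-483-3p. There the single miR-483-3p array was the lowest, by 1.20 on the log2 scale (SE 0.40) below the control, while both pairs were widely spread. Probe sets 243008_at and 241795_at overlapped between the groups, and 201451_x_at and 201452_at lay under the filter.

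The brakes on RHEB gave overlapping groups. TSC1 had 401.7 and 310.8 with miR-483-5p, 345.8 and 340.7 on the control arrays and 318.7 with miR-483-3p in probe set 209390_at. The miR-483-5p arrays lay on both sides of the controls, which were nearly equal. As a log2 difference this was 0.04 (95% interval -0.35 to 0.43, limma adjusted p = 0.953).

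TSC2, the GTPase activating partner of TSC1, had 227.3 and 170.2 with miR-483-5p, 252.9 and 204.4 on the control arrays and 200.7 with miR-483-3p in probe set 215735_s_at. The repeat was the dimmer in both pairs, and the groups overlapped. As a log2 difference this was -0.18 (95% interval -0.61 to 0.25, limma adjusted p = 0.759). The other TSC2 probe set, 215624_at, ranged from 4.9 to 38.5 and lay under the filter, with the first control array alone at 4.9.

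DDIT4, which stress such as hypoxia induces, varied more between the miR-483-5p arrays than between groups. Probe set 202887_s_at had 459.7 and 672 with miR-483-5p, 585.4 and 602.7 on the control arrays and 590.5 with miR-483-3p. The controls and the miR-483-3p array were close together, with a miR-483-5p array on either side. The log2 difference was -0.09 (95% interval -0.55 to 0.37, limma adjusted p = 0.901), and without the first miR-483-5p array it was 0.17.

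**Figure D2:**
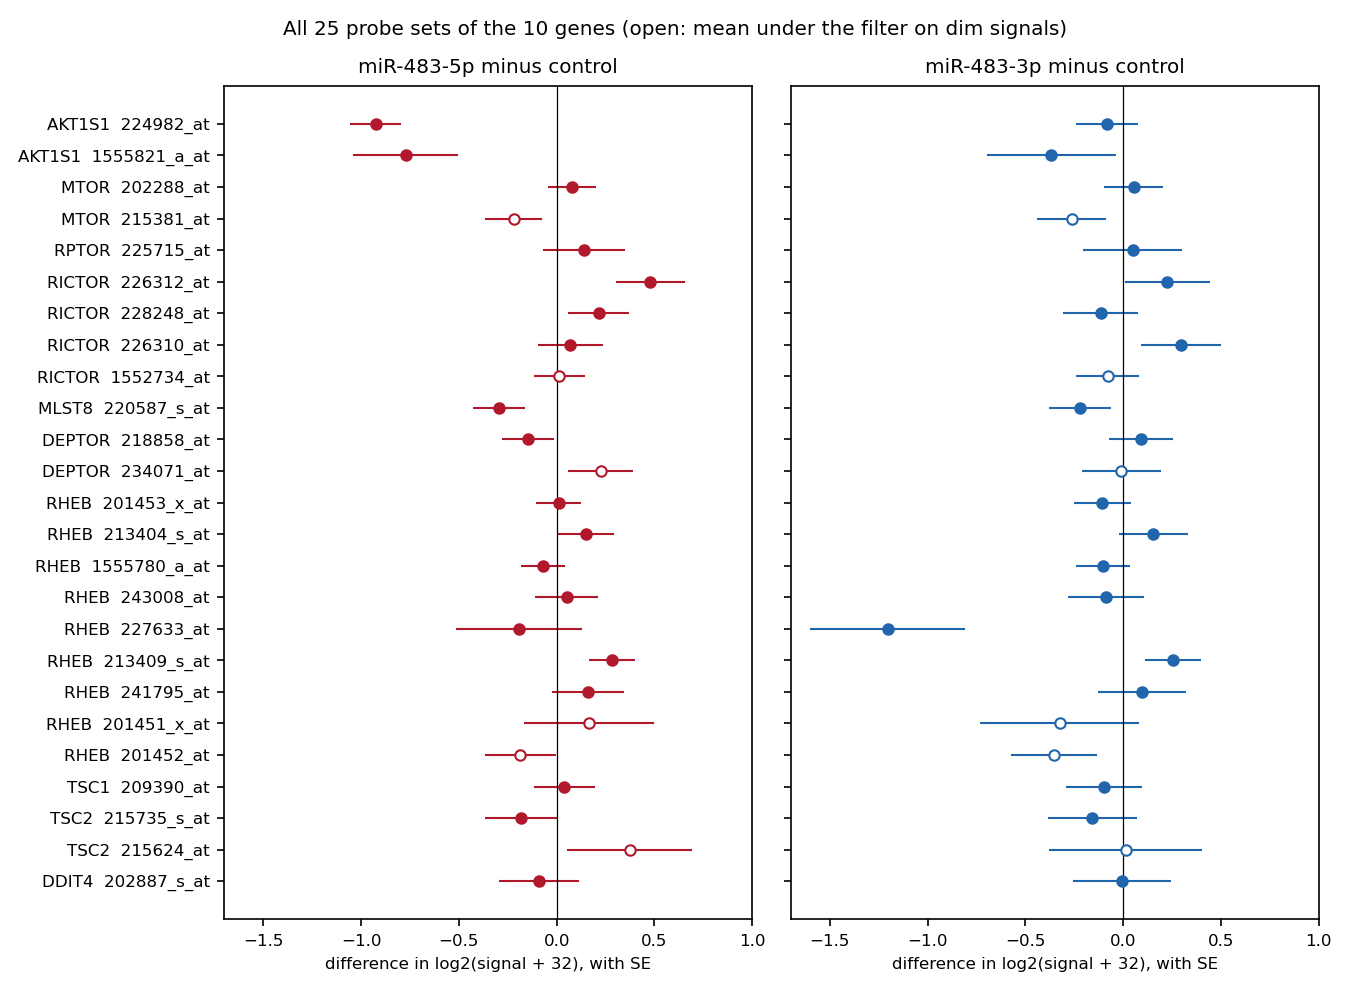
Difference in log2(signal + 32) between each mimic and the control for all 25 probe sets, with its standard error; open points have a mean under the filter on dim signals. Both AKT1S1 probe sets lie at the left for miR-483-5p, at -0.93 and -0.77, and RHEB 227633_at is the lowest for miR-483-3p, at -1.20.

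Over all 25 probe sets, 19 had a mean above the filter and 6 did not. The miR-483-5p arrays lay below both controls in 6 and above both in 2, where 20.5% and 16.1% of all probe sets did so. The 6 were both of AKT1S1 and 1 each of MLST8, DEPTOR, RHEB (1555780_a_at) and MTOR (215381_at, under the filter), and the 2 were 1 of RICTOR and 1 of RHEB. AKT1S1 was treated as chosen by this same difference, so its probe sets among the 6 follow from the choice. The miR-483-3p array lay below both controls in 10, both of AKT1S1 among them, and above both in 5, where 34.4% and 32.9% of all probe sets did so.

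With miR-483-3p the brightest probe sets of the genes stayed near the control. Of all genes, 2.51% were higher and 4.05% lower than the control at an unadjusted p under 0.05, and 0 of the 9 members other than AKT1S1 were either. The single miR-483-3p array lay below both controls for AKT1S1, MLST8, RHEB, TSC1 and TSC2 and above both for MTOR and RICTOR, 5 and 2 of 10, where 35.4% and 33.4% of genes did so. Without AKT1S1 these counts were 4 and 2 of 9. The log2 differences of the 9 ran from -0.22 in MLST8 to 0.23 in RICTOR, with a median of -0.008 against -0.001 over all genes. Between the arms, RICTOR was 0.25 higher with miR-483-5p on the log2 scale (95% interval -0.26 to 0.76, limma adjusted p = 0.881). At an unadjusted p under 0.05 between the arms, 3.41% of genes were higher with miR-483-5p and 3.24% lower, and 0 of the 9 members were either.

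The array pairs show how much of this is spread between repeats. In 5 of the 10 genes the first array was brighter than its repeat in both pairs, which was so in 29.4% of genes. The median size of the difference between the miR-483-5p arrays was 0.25 on the log2 scale for the 10 genes and 0.17 over all genes. Between the control arrays it was 0.13 and 0.16. Of the 9 members other than AKT1S1, RICTOR (0.48) and MLST8 (-0.295) had the largest differences between miR-483-5p and the control. First minus repeat, the RICTOR miR-483-5p arrays themselves differed by 0.40 and the MLST8 control arrays by -0.20.

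Other genes of the pathway were taken from lists by role. At an unadjusted p under 0.05, 5.3% of all genes were higher and 5.41% lower with miR-483-5p, and 2.51% and 4.05% with miR-483-3p. For the further subunits and assembly factors, MAPKAP1, PRR5, PRR5L, TELO2, TTI1 and TTI2, the groups differed by -0.22 to 0.16 on the log2 scale with miR-483-5p, and 0 of 6 reached an unadjusted p under 0.05 with either arm. Among the inputs from growth factors and energy, 17 of 21 genes had a probe set of their own and passed the filter. With miR-483-5p, 2 of them were higher at an unadjusted p under 0.05 and 0 lower. PIK3CB, a catalytic subunit of phosphoinositide 3-kinase, had 182.9 and 189.1 with miR-483-5p, 95.2 and 143 on the control arrays and 115.1 with miR-483-3p, a log2 difference of 0.55 (limma adjusted p = 0.404). It was 0.32 without the first control array and 0.09 over the mean of its probe sets, as its dimmer probe set gave -0.37. PRKAB2, a subunit of the energy sensor AMPK, had 352.1 and 319.8 with miR-483-5p against 233.8 and 262.8, a difference of 0.39 (adjusted p = 0.419). The median of the 17 was -0.021.

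In the lysosomal amino acid branch, 25 of 28 genes passed the filter. SEH1L, RRAGC, FNIP2, MIOS and KPTN stood above both controls with either mimic, and RRAGA, LAMTOR4, LAMTOR5 and WDR59 stood below both. The arms share these controls, and the share of all genes on the same side with both arms was not counted. For miR-483-5p the signals cleared the control range upward in 5 of the 25 genes and downward in 7. Of all genes, 20.3% and 22.2% did so. For miR-483-3p the counts were 12 and 8 of the 25, against 33.4% and 35.4% of all genes. SEH1L, a subunit of the GATOR2 complex and of the nuclear pore, had 1263 and 1194 with miR-483-5p, 841.8 and 838.1 on the control arrays and 1242 with miR-483-3p. The 3 mimic arrays were close together and well above the controls, which were nearly equal. The log2 difference came to 0.53 (SE 0.14, limma adjusted p = 0.337) with miR-483-5p and 0.55 (SE 0.17, adjusted p = 0.644) with miR-483-3p, on shared controls. Its dimmer probe set gave -0.02 and 0.21. SEH1L was the 1 gene of the branch at an unadjusted p under 0.05 with each arm. Of all genes, 5.3% were higher at that level with miR-483-5p and 2.51% with miR-483-3p. The list median was -0.083 with miR-483-5p and 0.025 with miR-483-3p.

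Among substrates and effectors, 19 of 20 genes passed the filter, with medians of -0.032 and -0.085. RPS6KB1, the S6 kinase that mTORC1 activates, had 640.3 and 542.6 with miR-483-5p, 456.1 and 388.9 on the control arrays and 477.4 with miR-483-3p, a log2 difference of 0.46 (limma adjusted p = 0.409). Its other probe sets gave 0.23 and 0.10. TFEB, the lysosomal transcription factor that mTORC1 holds in the cytoplasm, had 45 and 33.8 with miR-483-5p against 60.8 and 59.1, a difference of -0.37 (adjusted p = 0.447), and -0.32 in a probe set under the filter. These were the 1 higher and 1 lower gene of the 19 at an unadjusted p under 0.05, where 5.3% and 5.41% of all genes were. With miR-483-3p the 1 such gene was PRKCA, a kinase that depends on mTORC2, at 37.3 against 73 and 57.8 (difference -0.49, limma adjusted p = 0.729). At that unadjusted level 4.05% of all genes were lower with miR-483-3p. The other PRKCA probe sets, with mean signals of 11.6 or less, gave -0.095, 0.161, -0.107 and 0.02.

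The 14-3-3 proteins bind AKT1S1 once it is phosphorylated. Of 7, SFN alone reached an unadjusted p under 0.05 with miR-483-5p, at 389.4 and 478.5 against 610.4 and 646 in the control and 552.1 with miR-483-3p. As a log2 difference this was -0.51 (limma adjusted p = 0.381), and its other 2 probe sets gave -0.04 and -0.01. At that unadjusted level, 5.3% of all genes were higher with miR-483-5p and 5.41% lower.

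Lysosomal genes under TFEB were the list with the lowest median with miR-483-5p. Of 13 that passed the filter, 11 lay below the control with miR-483-5p. In 8 both miR-483-5p arrays lay below both controls and in 0 above both, where 22.2% and 20.3% of all genes did so. The other lists, in the order given, had 1 of 6, 4 of 17, 7 of 25, 3 of 19 and 2 of 7 below both controls. They had 1, 5, 5, 5 and 1 above both. The lists were chosen with earlier results of these data known, so no count here is independent of those results. The median of the lysosomal list was -0.20 against -0.008 over all genes. Leaving out the first miR-483-5p array gave -0.33, and leaving out its repeat -0.14. SQSTM1, an autophagy receptor, had 766.4 and 784 with miR-483-5p, 994.7 and 1132 on the control arrays and 1098 with miR-483-3p, a log2 difference of -0.44 (limma adjusted p = 0.402). CTSA, a protective protein and protease of the lysosome, had 469.2 and 340.2 against 679.5 and 539.8 and 453.6 with miR-483-3p (-0.56, adjusted p = 0.409). NEU1, a sialidase that CTSA protects, had 238.9 and 182 against 294 and 285.2 and 313.2 with miR-483-3p (-0.42, adjusted p = 0.437). Without the repeat miR-483-5p array, CTSA gave -0.35 and NEU1 -0.25. SQSTM1, CTSA and NEU1 were the 3 genes of the 13 at an unadjusted p under 0.05, where 5.41% of all genes were lower. None passed after adjustment. With miR-483-3p 7 of the 13 were higher and 6 lower, with a median of 0.007. Between the arms, 4 of the 13 were lower with miR-483-5p at an unadjusted p under 0.05, against 3.24% of all genes. Of the dimmer SQSTM1 probe sets, 239004_at, 242568_s_at and 213112_s_at gave -0.48, -0.14 and -0.09 and 244804_at gave 0.12. The GAPDH ratio of 1.09 and 1.10 against 1.02 and 0.996 separated the same arrays, the ACTB ratio of 1.18 and 1.07 against 1.07 and 1.04 did not, and their part in these differences was not tested.

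**Figure D3:**
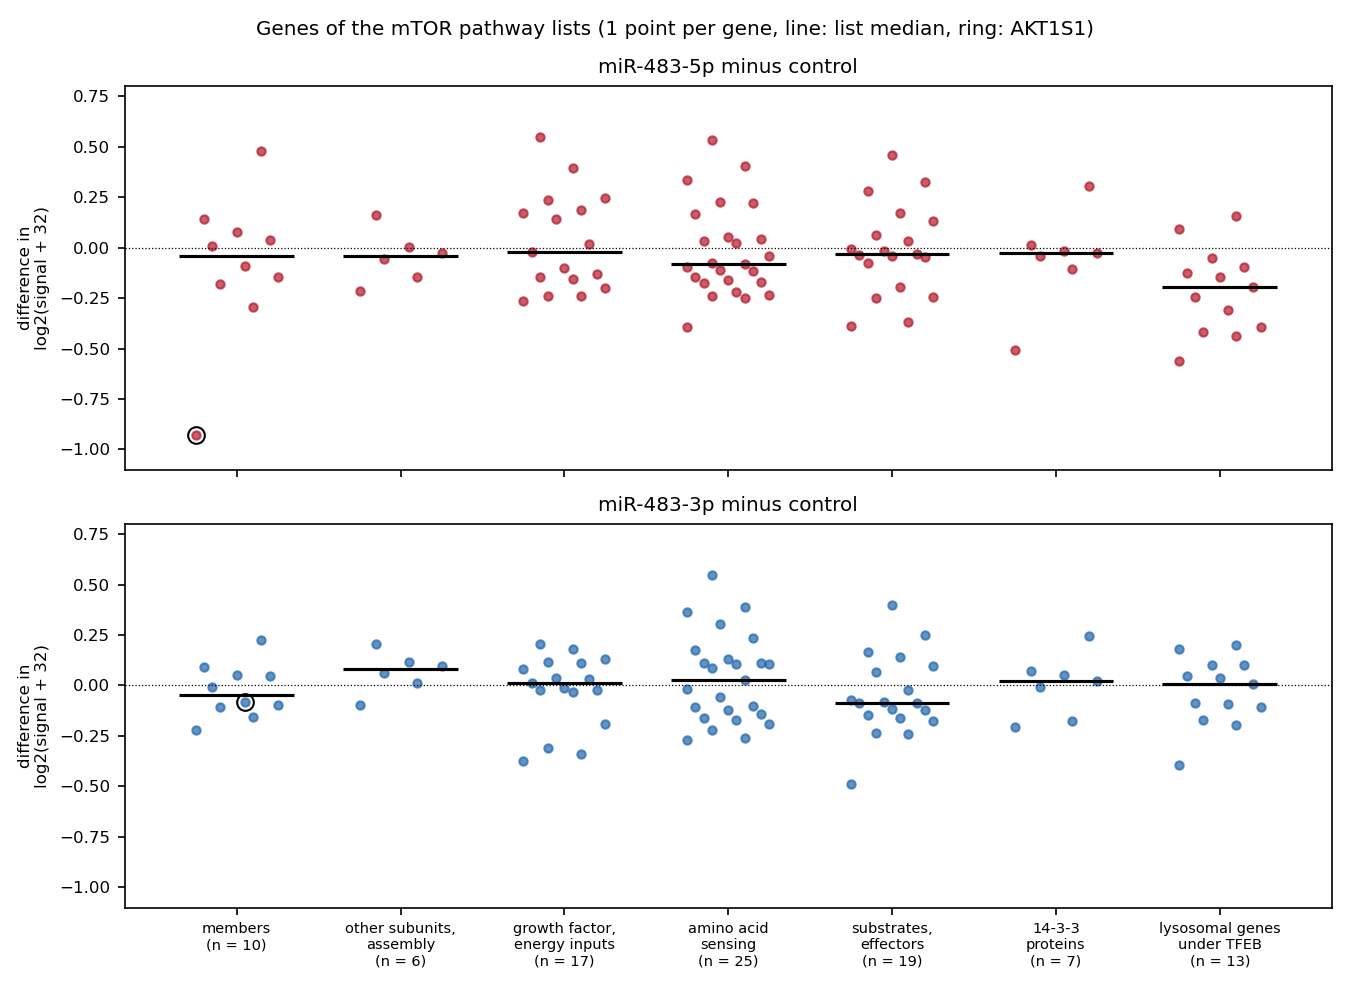
Difference in log2(signal + 32) from the control, for miR-483-5p above and miR-483-3p below, with 1 point per gene, a line at each list's median and a ring round AKT1S1. AKT1S1, treated as chosen by this difference, lies at -0.93 with miR-483-5p, below every other gene drawn. The lysosomal list has the lowest median with miR-483-5p, at -0.20.

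The genes whose pattern was most like that of AKT1S1 over the 5 arrays were CDKN2AIPNL, CSTB, OCEL1, TIMP2 and OSBP2. Likeness was the root mean square difference of the log2 profiles after each gene's own mean was taken off, and it was 0.08 to 0.09 for these 5 against 0.47 for the median gene. CSTB, which encodes the protease inhibitor cystatin B, had 841.4 and 876 with miR-483-5p, 1515 and 1474 on the control arrays and 1448 with miR-483-3p. TIMP2, a metalloproteinase inhibitor, had 1171 and 1180 against 2142 and 2073 in the control and 1880 with miR-483-3p. Like AKT1S1, each had low miR-483-5p arrays and a miR-483-3p array near the controls. The genes were picked by this likeness on the same arrays, so the shared pattern follows from the choice. Among the other members the nearest was MLST8, at 0.36, and the farthest RICTOR, at 0.67.

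TBC1D17, a gene that overlaps AKT1S1 in the RefSeq table of GRCh38.p14, was not lower in the same way. Its probe set, 218466_at, had 153.1 and 90.6 with miR-483-5p, 155 and 103.3 on the control arrays and 117.6 with miR-483-3p. The groups overlapped, with a log2 difference of -0.08 (limma adjusted p = 0.938).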

How the data were processed

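Each deposited value is the intensity of a probe set on a linear scale, for 54675 probe sets on 5 arrays. Per the submitters' processing notes GCOS and Partek were used, without versions, and no source used here names the signal algorithm. Groups came from the labels. Probe sets were named from the platform annotation, with symbols updated through RefSeq gene identifiers, and the 62 control probe sets were left out.

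From log2(signal + 32), limma 3.58.1 (R 4.3.3) fitted a mean per group over all 5 arrays, with 2 residual and 4.96 prior degrees of freedom, two-sided tests and Benjamini-Hochberg adjustment over 14591 genes. Each gene used its probe set with the highest mean. Genes whose mean fell under a signal of 27.2, the 40th percentile over probe sets, were left out. SEs of single probe sets came from the same model over all 54613 probe sets, without the filter. The single miR-483-3p array was assumed to vary like the pairs. The fit was tested on simulated data. Alternatives were other scalings, pseudocounts, filters, probe set rules, variance priors, an array order block and leaving out each paired array; those on pathway genes and list medians were chosen after seeing the data. Pathway genes were named where the unadjusted p was under 0.05, at most 4 per list and arm. The members and lists were chosen with earlier results of these data known. Figures used matplotlib 3.10.9.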

Additional observations from a re-analysis of the deposited data

How the results depend on the processing

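None of the 9 members other than AKT1S1 reached an adjusted p under 0.05 in any comparison under the 13 alternatives, of which the filter at the 60th percentile and the mean of probe sets gave DEPTOR no value. The log2 difference of AKT1S1 between miR-483-5p and the control ran from -1.01 to -0.84. The count of all genes called, 0 in each comparison, was less stable. Centring arrays on their medians gave 37 for miR-483-5p against the control, 2 for miR-483-3p and 7 between the arms. A pseudocount of 100 gave 33 and 1 against the control for miR-483-5p and miR-483-3p, a variance prior that follows intensity 39 and 1, and the filter at the 60th percentile 1 for miR-483-5p. The cause was not tested. Members with differences near 0 changed sign. For miR-483-5p against the control, the mean of probe sets gave -0.071 for MTOR and 0.096 for TSC2, and quantile normalization -0.016 for RHEB. Leaving out 1 array gave -0.005 to 0.162 for MTOR, -0.068 to 0.349 for RPTOR, -0.049 to 0.068 for RHEB, -0.13 to 0.209 for TSC1 and -0.348 to 0.169 for DDIT4. For miR-483-3p against the control, median centring gave 0.029 for DDIT4 and the mean of probe sets -0.105 for MTOR. Array order as a block gave -0.003 for MTOR, -0.138 for RPTOR and 0.131 for DDIT4. Leaving out 1 array gave -0.16 to 0.257 for RPTOR, -0.022 to 0.204 for DEPTOR and -0.028 to 0.012 for DDIT4. Between the arms, TSC2 was at 0.168 with the mean of probe sets and 0.134 with the block. Leaving out 1 array gave -0.059 to 0.108 for MTOR, -0.073 to 0.256 for RPTOR, -0.033 to 0.306 for TSC1, -0.203 to 0.156 for TSC2 and -0.34 to 0.178 for DDIT4. The block, of first arrays against repeats, is no pairing that the labels give, and under it 0 members were called. For miR-483-5p against the control, the mean of probe sets brought PRKAB2 to 0.252, RPS6KB1 to 0.263, SEH1L to 0.255, SFN to -0.185 and SQSTM1 to -0.207. With 1 or 2 arrays a group, the number of arrays limits the precision.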
